A study of Mus musculus with 6 samples.

Results

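Thiol antioxidant defence was followed through 10 genes of the NRF2 pathway, taken by symbol from the 22298 genes of the mRNA table: Nfe2l2, Keap1, Nqo1, Gclc, Gclm, Srxn1, Txn1, Prdx1, Sqstm1 and G6pdx. All 10 were found and all 10 passed the filter on low counts, among 13082 genes tested. The samples were 3 libraries of GC-1spg cells, an immortalised mouse spermatogonial line, transfected with an siRNA against Mettl3 (si-METTL3), and 3 transfected with a control siRNA (si-NC). Cells of both groups were grown in DMEM with serum and collected 48 h after transfection. METTL3 is the catalytic subunit of the enzyme complex behind N6-methyladenosine (m6A), a mark on messenger RNA, and the stated aim was to compare RNA levels between spermatogonial cells differing in m6A. The labels print the same sequence for the METTL3 and the control siRNA and tag the si-NC cells as untreated, so the control sequence is not known. Whether the replicates came from separate cultures is not stated, so p-values measure the spread between these libraries, which may be technical.

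NRF2, encoded by Nfe2l2, is a transcription factor that pairs with small MAF proteins and binds antioxidant response elements. In unstressed cells KEAP1 ties NRF2 to a CUL3 ubiquitin ligase, and NRF2 is degraded. Oxidants and electrophiles modify cysteines of KEAP1, and the autophagy receptor p62, encoded by Sqstm1, can displace NRF2 from KEAP1. NRF2 then raises genes that make glutathione, reduce peroxides and quinones, and supply NADPH. NRF2 activity is set largely at the protein level, which was not measured here.

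The mRNA table held 22146057 to 31469144 counts in si-METTL3 libraries and 29679593 to 37698956 counts in si-NC libraries. Mettl3 itself had 142, 134 and 136 counts in si-METTL3 and 606, 578 and 683 in si-NC. Of 14 germ line markers, Mael, Tex11 and Nanos2 were at 0 in every library and Ddx4 had 1 to 7 counts, while Uchl1 had 865 to 1291 counts in si-METTL3 and 1057 to 1516 in si-NC, and Gfra1 had 89 to 140.0 in si-METTL3 and 78 to 118 in si-NC. Of the 6 germ line markers tested 1 was higher and 0 were lower. Of 8 Sertoli and gonadal somatic markers, Sox9, Wt1, Gata4, Amh, Star and Acta2 had counts in every library. Cyp17a1 and Insl3 were at 0 in every library. The cells are therefore named here by their line alone. Summed over 13 lung epithelium markers such as Sftpc, the level was 92.7, 91.6 and 62.6 CPM, the count scaled to library size, in si-METTL3. The si-NC libraries were unequal, with 3.56, 2.22 and 58.6 CPM in replicates 1, 2 and 3. Summed over 5 blood markers such as Hbb-bs, the level was 19.1, 16.1 and 12.4 CPM in si-METTL3 and 0.448, 0.809 and 11.8 CPM in si-NC. None of the 12 lung or 4 blood markers tested passed the threshold used below. Summed over 9 macrophage and endothelial markers, the level was 36.8 to 45.9 CPM in si-METTL3 and 16.6, 18.5 and 34.2 CPM in si-NC. Of its 8 markers tested 0 passed. The 8 Sertoli and gonadal somatic markers summed to 324 to 345 CPM in si-METTL3 and 237 to 250.04 CPM in si-NC, most of it Wt1, and of the 6 tested 2 were higher and 1 was lower. The part of these markers in the results was not tested. Genes that passed were therefore also compared with si-NC replicate 3 as the only control library. This comparison was added after the data were seen, and that library is assumed to vary like the others. The slope of log2 CPM, relative to each gene's mean, on log2 transcript length was -0.157 in that library. It was -0.0760 and 0.0309 in si-NC replicates 1 and 2, and 0.0285 to 0.0998 in si-METTL3. Against replicate 3 alone the groups thus lie further apart in this slope, and its part in that comparison was not tested.

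Of the 10 genes, 2 were higher (Nfe2l2, Gclm) and 1 was lower (Sqstm1) in si-METTL3. Across all tested genes 18.9% passed the same threshold (a Benjamini-Hochberg adjusted p below 0.05 in the quasi-likelihood test of edgeR), 8.67% higher and 10.2% lower, and the 3 of 10 genes are to be read against that share. Against si-NC replicate 3 alone 1 gene was higher (Nfe2l2) and 1 lower (Sqstm1). The median log2 fold change of the 10 genes was -0.10, against 0.03 over all tested genes. The remaining 7 genes, among them Nqo1, Gclc, Srxn1 and Prdx1, did not pass. CPM did not overlap between the groups for Nfe2l2, Gclm and Sqstm1 and overlapped for the 7 others, while 41.5% of all tested genes had groups without overlap. In these bulk libraries less RNA per cell and fewer cells carrying it cannot be told apart.

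**Figure D1:**
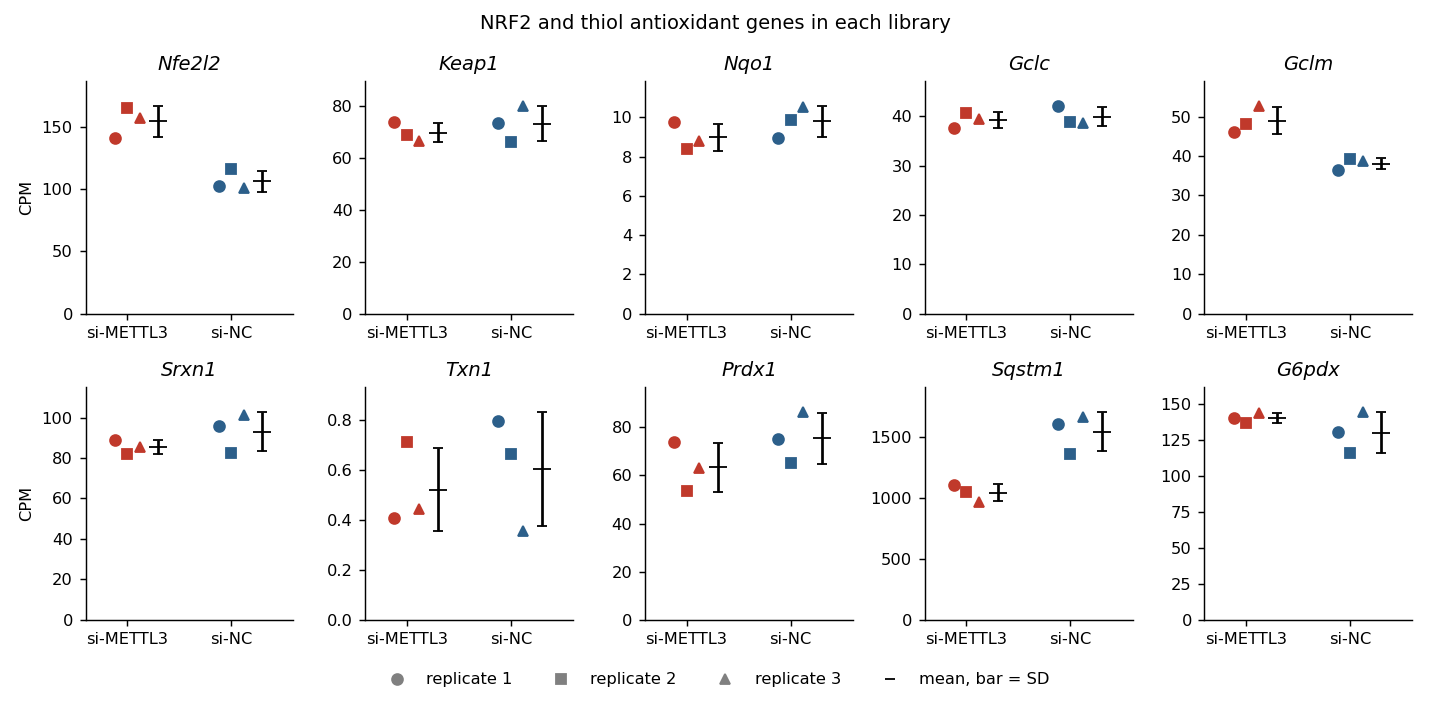
CPM (counts scaled to library size, vertical axis from 0) of the 10 genes in each library, 3 si-METTL3 libraries left and 3 si-NC libraries right in each panel, with the mean and SD of a group as a bar. Nfe2l2 and Gclm lie higher and Sqstm1 lower in every si-METTL3 library, and the groups overlap for the 7 other genes.

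The promoters of the 3 genes that passed are shown because NRF2 acts through antioxidant response elements close to many of its targets, and that of Prdx1 because its match overlaps another motif. RefSeq windows from 250 bases before to 50 after the gene start were matched by symbol for 9 of the 10 genes, Gclc excepted. They were searched on both strands for TGACNNNGC, the core of the antioxidant response element. At least 1 match was found in 5 of 9 genes, against 14.0% of 27025 genes with such a window. The matches were in Nfe2l2 (TGACTCCGC, first base at -240 from the gene start), Gclm (TGACGGTGC, -134), Srxn1 (TGACCTAGC, 29), Prdx1 (TGACTCAGC, -133) and G6pdx (TGACTGAGC, -57), all but that of Nfe2l2 on the strand opposite to the gene. That of Prdx1 contains TGACTCA, a consensus for AP-1 factors of which Prdx1 and Srxn1 each held 2 copies and the 7 other windows 0, against 5.95% of all genes with at least 1. Matches thus occurred in 2 genes that rose (Nfe2l2, Gclm) and in 3 that did not pass, and none was found in the Sqstm1 window, which says only that these letters are not in it. In the sequences the match is in capitals.
Nfe2l2 (chr2:75704614-75704913, GRCm38.p6, minus strand): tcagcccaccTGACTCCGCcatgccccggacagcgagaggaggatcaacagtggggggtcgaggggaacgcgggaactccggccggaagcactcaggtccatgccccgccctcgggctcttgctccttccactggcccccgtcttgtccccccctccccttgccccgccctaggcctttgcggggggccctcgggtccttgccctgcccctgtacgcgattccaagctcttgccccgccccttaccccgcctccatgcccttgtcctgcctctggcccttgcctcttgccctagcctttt
Gclm (chr3:122245307-122245606, GRCm38.p6, plus strand): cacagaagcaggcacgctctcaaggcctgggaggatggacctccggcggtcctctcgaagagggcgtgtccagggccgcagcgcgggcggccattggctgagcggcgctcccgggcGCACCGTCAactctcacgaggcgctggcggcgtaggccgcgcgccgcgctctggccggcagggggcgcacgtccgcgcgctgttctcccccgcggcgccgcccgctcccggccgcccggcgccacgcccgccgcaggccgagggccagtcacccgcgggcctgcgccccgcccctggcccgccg
Prdx1 (chr4:116685349-116685648, GRCm38.p6, plus strand): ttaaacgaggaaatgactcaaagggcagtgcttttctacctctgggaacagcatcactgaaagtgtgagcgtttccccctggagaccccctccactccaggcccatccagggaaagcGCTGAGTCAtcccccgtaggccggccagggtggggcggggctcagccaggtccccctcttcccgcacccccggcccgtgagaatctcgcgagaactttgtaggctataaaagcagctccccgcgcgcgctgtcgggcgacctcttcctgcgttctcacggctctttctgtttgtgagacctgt
Sqstm1 (chr11:50210771-50211070, GRCm38.p6, minus strand): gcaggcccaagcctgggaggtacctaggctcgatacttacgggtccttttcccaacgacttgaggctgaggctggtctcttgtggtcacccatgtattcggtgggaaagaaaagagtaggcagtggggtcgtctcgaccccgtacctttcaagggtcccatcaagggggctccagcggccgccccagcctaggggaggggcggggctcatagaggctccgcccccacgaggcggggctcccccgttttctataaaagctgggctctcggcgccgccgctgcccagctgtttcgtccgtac

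Nfe2l2 (ENSMUSG00000015839, minus strand of chromosome 2, 75675513 to 75704641, GRCm38), the gene of NRF2 itself, rose. It had 141, 165 and 157 CPM in si-METTL3 libraries, against 102, 116 and 101 CPM in si-NC libraries. Every si-METTL3 library lay above every si-NC library. The means were 154 ± 12.3 CPM in si-METTL3 and 106 ± 8.43 CPM in si-NC (SD, n = 3 each), an increase of 45.1% in CPM (log2 fold change 0.54, SE 0.09, 95% interval 0.32 to 0.75, edgeR adjusted p = 0.0108). Its raw counts were also higher, at 4501, 3704 and 3864 in si-METTL3 and 3587, 3496 and 3693 in si-NC. The snRNA gene Gm24996 overlaps Nfe2l2 on the same strand, and its part in these counts was not tested. The call was lost without si-METTL3 replicate 2 (edgeR adjusted p = 0.0575), si-METTL3 replicate 3 (0.0558) or si-NC replicate 1 (0.0584), with log2 fold changes between 0.47 and 0.60 over the 6 fits that left out a library. Against si-NC replicate 3 alone the log2 fold change was 0.61 (edgeR adjusted p = 0.0304).

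Keap1 (ENSMUSG00000003308, minus strand of chromosome 9, 21229730 to 21239361), the cysteine-rich adaptor that holds NRF2 in the cytosol, did not pass. It had 73.7, 68.7 and 66.5 CPM in si-METTL3 and 73.4, 66.1 and 79.7 CPM in si-NC, and the groups overlapped. The difference was -4.73%, with a 95% interval from -17.9% to 10.5% (log2 fold change -0.07, SE 0.09, edgeR adjusted p = 0.609). Per transcript length, the ratio of Nfe2l2 to Keap1 FPKM was 2.35, 3.21 and 2.94 in si-METTL3 and 1.77, 2.32 and 1.65 in si-NC. The lowest si-METTL3 ratio was thus just above the highest si-NC ratio (two-sided exact permutation p = 0.1, the smallest that 3 against 3 libraries allow; this ratio was chosen after the values were seen).

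Sqstm1 (ENSMUSG00000015837, minus strand of chromosome 11, 50199366 to 50210827), which encodes the receptor p62 that brings ubiquitinated cargo to autophagosomes and can bind KEAP1, fell. It had 1109.6, 1047 and 971 CPM in si-METTL3 libraries, against 1603, 1360.4 and 1666 CPM in si-NC libraries. The highest si-METTL3 library lay below the lowest si-NC library. The means were 1043 ± 69.5 CPM in si-METTL3 and 1543 ± 162 CPM in si-NC (SD, n = 3 each), a change of -32.4% with a 95% interval from -42.3% to -21.0% (log2 fold change -0.57, SE 0.10, edgeR adjusted p = 0.0108). This call was lost without si-METTL3 replicate 2 (edgeR adjusted p = 0.0578), si-METTL3 replicate 3 (0.0568) or si-NC replicate 1 (0.0527), with log2 fold changes between -0.65 and -0.52 over the 6 fits. Against si-NC replicate 3 alone the log2 fold change was -0.68 (edgeR adjusted p = 0.0162). Mrnip overlaps Sqstm1 on the other strand, and its 195 to 290 counts in si-METTL3 and 272 to 408 in si-NC were small beside the 23503 to 35463 counts of Sqstm1 in si-METTL3 and 41018 to 61171 in si-NC. The sources used here do not give whether counting used strand.

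Both genes of glutamate-cysteine ligase, the rate-limiting enzyme of glutathione synthesis, were measured, and they differed in outcome. Gclm (ENSMUSG00000028124, plus strand of chromosome 3, 122245557 to 122270732), the modifier subunit, rose. It had 46.1, 48.0 and 52.7 CPM in si-METTL3, against 36.4, 39.2 and 38.7 CPM in si-NC, with no overlap. The means were 48.9 ± 3.41 CPM in si-METTL3 and 38.1 ± 1.47 CPM in si-NC (SD, n = 3 each), an increase of 28.4% with a 95% interval of 11.8% to 47.5% (log2 fold change 0.36, SE 0.08, edgeR adjusted p = 0.0283). This was the least stable of the 3 calls. It was lost without si-METTL3 replicate 1 (edgeR adjusted p = 0.0562), 2 (0.0975) or 3 (0.121) and without si-NC replicate 1 (0.122) or 3 (0.0679), and against si-NC replicate 3 alone (0.105), with log2 fold changes between 0.30 and 0.38 in all of these fits.

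Gclc (ENSMUSG00000032350, plus strand of chromosome 9, 77754535 to 77794485), the catalytic subunit, did not pass. It had 37.6, 40.8 and 39.4 CPM in si-METTL3 and 42.1, 38.9 and 38.7 CPM in si-NC, and the groups overlapped. Its difference of -1.58% had a 95% interval from -13.7% to 12.3% (log2 fold change -0.02, SE 0.08, edgeR adjusted p = 0.858). Set as a ratio, Gclm over Gclc FPKM was 3.47, 3.17 and 3.79 in si-METTL3 and 2.49, 2.92 and 3.00 in si-NC, without overlap (two-sided exact permutation p = 0.1, again the smallest possible, for a ratio chosen after the values were seen). Gclm holds a repeated stretch: 0.776% of the 50-base windows of its longest coding transcript also occurred in transcripts of 64 other genes. Gm6061, a transcribed processed pseudogene, overlaps Gclm on the same strand and Gm17494 overlaps it on the other. Their part in the Gclm counts was not tested.

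Of the 10 genes, Prdx1, Srxn1 and Txn1 belong to the thioredoxin and peroxiredoxin system, and none of the 3 passed. Prdx1 (ENSMUSG00000028691, plus strand of chromosome 4, 116685544 to 116700822), an abundant cytosolic peroxidase, had 73.8, 53.4 and 63.2 CPM in si-METTL3 and 75.2, 65.1 and 86.3 CPM in si-NC. The spread within each group was wide and the groups overlapped (log2 fold change -0.25, SE 0.15, 95% interval -0.60 to 0.10, edgeR adjusted p = 0.262). Of its 50-base windows 10.9% were shared with 3 processed pseudogenes, so its own level is uncertain. Srxn1 (ENSMUSG00000032802, plus strand of chromosome 2, 152105516 to 152111376) encodes sulfiredoxin, which repairs over-oxidised peroxiredoxins. It had 89.1, 82.0 and 85.6 CPM in si-METTL3 and 95.7, 82.5 and 101 CPM in si-NC, with overlap (log2 fold change -0.12, SE 0.09, 95% interval -0.34 to 0.10, edgeR adjusted p = 0.377). Without si-NC replicate 2 alone it passed narrowly (log2 fold change -0.20, edgeR adjusted p = 0.0490).

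Txn1 (ENSMUSG00000028367, minus strand of chromosome 4, 57943373 to 57956411), which encodes cytosolic thioredoxin, was near the limit of detection in this table. It had 13, 16 and 11 counts in si-METTL3 and 28, 20 and 13 counts in si-NC, or 0.522 ± 0.167 CPM in si-METTL3 and 0.605 ± 0.228 CPM in si-NC (SD, n = 3 each). Its 95% interval ran from -1.24 to 0.80 on the log2 scale (log2 fold change -0.22, SE 0.43, edgeR adjusted p = 0.737), so neither a rise nor a fall of moderate size was detectable at these counts. The sign turned without si-NC replicate 1 (0.03) and against si-NC replicate 3 alone (0.53). Thioredoxin is known as an abundant protein of most cell types, and Txnrd1, the gene of its reductase, stood at 465 ± 15.7 CPM in si-METTL3 and 491 ± 23.4 CPM in si-NC. Of the 50-base windows of Txn1, 2.50% occurred in 1 other annotated gene, the processed pseudogene Txn-ps1, and whether reads of Txn1 were lost in counting was not tested.

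Among the enzymes that use or make NADPH, neither listed gene passed. Nqo1 (ENSMUSG00000003849, minus strand of chromosome 8, 107388225 to 107403206), a quinone reductase widely used as a readout of NRF2 activity, had 9.76, 8.38 and 8.80 CPM in si-METTL3 and 8.98, 9.88 and 10.5 CPM in si-NC. The groups overlapped, and the difference of -8.29% had a 95% interval from -24.5% to 11.4% (log2 fold change -0.12, SE 0.12, edgeR adjusted p = 0.481). G6pdx (ENSMUSG00000031400, minus strand of chromosome X, 74409483 to 74429194), the entry enzyme of the pentose phosphate pathway, had 140.5, 137 and 144 CPM in si-METTL3 and 130.5, 116 and 144 CPM in si-NC. These overlapped as well (log2 fold change 0.11, SE 0.09, 95% interval -0.11 to 0.32, edgeR adjusted p = 0.425), and the sign turned against si-NC replicate 3 alone (-0.05). Its retrogene G6pd2, which shares 7.65% of its 50-base windows, had 0 counts in all 6 libraries. Ikbkg overlaps G6pdx on the other strand and had 1249 to 1704 counts in si-METTL3 and 2110.0 to 2411 in si-NC. These were not small beside the 3070 to 4489 counts of G6pdx in si-METTL3 and 3497 to 5304 in si-NC. In CPM the groups overlapped for Ikbkg, and it did not pass (edgeR adjusted p = 0.160).

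**Figure D2:**
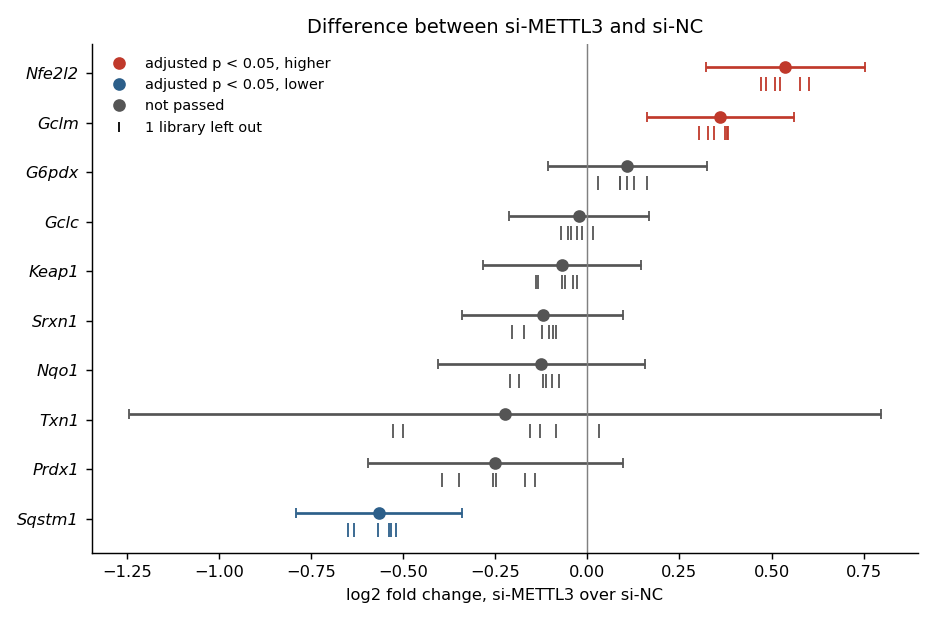
Log2 fold change of si-METTL3 over si-NC (horizontal axis) for the 10 genes, with the 95% interval as a bar and, as ticks beneath, the values from the 6 fits that each left out 1 library. The intervals of Nfe2l2, Gclm and Sqstm1 do not cross 0, and that of Txn1 runs from -1.24 to 0.80.

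The levels of the 10 genes were compared per transcript length by the deposited FPKM (fragments scaled to transcript length and library size). By mean FPKM over all libraries the order was Sqstm1 (516), Prdx1 (57.8), G6pdx (54.1), Nfe2l2 (45.3), Gclm (30.8), Srxn1 (27.5), Keap1 (19.3), Gclc (9.83), Nqo1 (4.97) and Txn1 (0.442), against a median of 8.76 FPKM over tested genes. Sqstm1 ranked at position 101 among the 13082 tested genes, even though it fell to 452, 421 and 385 FPKM in si-METTL3, against 635, 548 and 654 FPKM in si-NC. Prdx1 and G6pdx overlapped in both groups, so their order is not resolved. Nfe2l2 reached their range in si-METTL3 (49.7 to 57.2 FPKM) and lay below it in si-NC (34.8 to 41.1 FPKM). Likewise Gclm (32.8 to 35.6 FPKM) lay above Srxn1 (25.9 to 27.0 FPKM) in si-METTL3. The pair overlapped in si-NC (26.3 to 28.5 FPKM for Gclm and 25.5 to 30.7 FPKM for Srxn1). In CPM Gclm (46.1 to 52.7) lay below Srxn1 (82.0 to 89.1) in si-METTL3. The deposited counts and FPKM imply lengths near 1.41 kb for Gclm and 1.19 kb for Prdx1. Their longest coding transcripts have 5589 and 2294 bases. Their places in this order, and the size of the Gclm over Gclc ratio, thus depend on the length used. Keap1, Gclc, Nqo1 and Txn1 had ranges apart from each other and below all the others. Nqo1, at 4.79 ± 0.427 FPKM in si-METTL3 and 5.16 ± 0.404 FPKM in si-NC (SD, n = 3 each), and Txn1 were the 2 members below the median of tested genes.

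**Figure D3:**
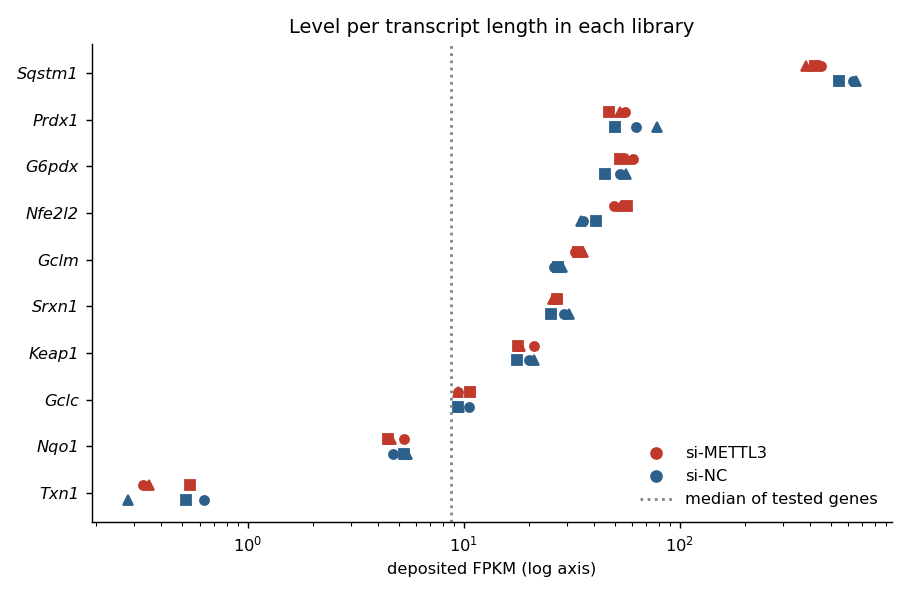
Deposited FPKM (log axis) of the 10 genes in each library, si-METTL3 points above si-NC points for each gene, with circles, squares and triangles for replicates 1, 2 and 3. The dotted line is the median of tested genes at 8.76 FPKM, and Sqstm1 lies near 516 FPKM and Txn1 near 0.442 FPKM.

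The lncRNA table listed 8 non-coding transcripts of these genes, for Nfe2l2, Keap1, Gclc, Gclm, Srxn1 and G6pdx, and 2 had enough counts to be tested. The Nfe2l2 transcript (ENSMUST00000152371, annotated as a processed transcript) had 4.23, 4.56 and 4.17 FPKM in si-METTL3 and 4.32, 4.89 and 4.34 FPKM in si-NC. These FPKM overlapped, but in CPM the transcript had 91.6, 91.1 and 82.3 in si-METTL3, all below the 97.2, 94.9 and 103 in si-NC. The share of transcripts in the lncRNA table without overlap was not counted, so this separation cannot be set against it. The gene in the mRNA table stood at 49.7, 57.2 and 53.6 FPKM in si-METTL3 and 35.6, 41.1 and 34.8 FPKM in si-NC. The log2 fold change of the non-coding transcript was -0.16 (SE 0.15, 95% interval -0.51 to 0.19, edgeR adjusted p = 0.67). The tables were fitted separately, and the difference between the 2 entries was not tested. The G6pdx transcript (ENSMUST00000135894) had 178, 74 and 102 counts in si-METTL3 and 165, 88 and 200 counts in si-NC (log2 fold change -0.10, SE 0.36, edgeR adjusted p = 0.926). Of all 5728 transcripts tested there, 0.733% passed.

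Around these genes, 115 further genes of the pathway were sorted into 5 lists, and 112 were tested. Of these 15 were higher and 10 lower in si-METTL3, or 22.3%, against 18.9% of all tested genes. Their median log2 fold change was 0.003, against 0.03 over all tested genes. Of the calls, 5 of 15 higher and 3 of 10 lower held in all 6 fits that left out a library.

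Among NRF2 partners and regulators, 2 of 17 rose and 5 fell. Nfe2l3, a relative of NRF2, rose to 34.0 ± 2.71 CPM in si-METTL3, against 17.4 ± 1.25 CPM in si-NC (SD, n = 3 each; log2 fold change 0.96, SE 0.10, edgeR adjusted p = 0.00206). Amer1, which encodes a KEAP1-binding protein, rose by 0.37 on the log2 scale (edgeR adjusted p = 0.0491), though it passed in 3 of 10 other ways of processing and its value was 0.10 (edgeR adjusted p = 0.346) once libraries were corrected for transcript length. Pgam5, a mitochondrial phosphatase that binds KEAP1, fell (-0.81, edgeR adjusted p = 0.00567). So did components of ubiquitin ligases that act on NRF2, Fbxw11 (-0.57), an F-box protein, and Rbx1 (-0.52), the RING subunit, and the dimer partners Mafk (-0.51) and Mafg (-0.39, named to complete the count). Cul3, the scaffold of the KEAP1 ligase, had 0.52 (SE 0.24, edgeR adjusted p = 0.170) and did not pass. The calls of Nfe2l3, Pgam5 and Fbxw11 held in all 6 fits that left out a library, and those of Rbx1 and Mafk in 3, Mafg in 2 and Amer1 in 1.

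Of 28 further NRF2 target genes tested, 7 rose and 0 fell in edgeR (10 and 6 at an unadjusted p under 0.05, 7 and 1 in DESeq2, 8 and 0 in limma-voom). Over all tested genes 8.67% were higher and 10.2% lower in edgeR. The median of the list was 0.01, with 14 values above 0 and 14 below. Gsta4, a glutathione transferase for lipid aldehydes, rose to 134 ± 8.57 CPM in si-METTL3, against 70.9 ± 8.01 CPM in si-NC (SD, n = 3 each; log2 fold change 0.92, SE 0.10, edgeR adjusted p = 0.00243). Genes for the aldehyde dehydrogenase Aldh3a1 (1.23), the quinone reductase Nqo2 (0.74) and the glutathione transferase Gstm1 (0.52) rose too. So did Gsr (0.48, edgeR adjusted p = 0.0241), Ugdh (0.34, edgeR adjusted p = 0.0157) and Mgst1 (0.27, edgeR adjusted p = 0.0404), named to complete the count. Aldh3a1 had 12.3, 14.4 and 11.2 CPM in si-METTL3 and 4.62, 4.11 and 7.41 CPM in si-NC, the last in the replicate with lung markers. Against that replicate alone Aldh3a1 (0.76, edgeR adjusted p = 0.0558) and Gstm1 (0.36, edgeR adjusted p = 0.130) did not pass, and the list had 2 higher and 3 lower genes. The call of Gsta4 held in 6 of 6 fits that left out a library, and those of Aldh3a1, Gstm1 and Nqo2 in 3, 2 and 1. Those of Gsr, Ugdh and Mgst1 held in 2, 2 and 1. Hmox1, the heme oxygenase gene often read together with Nqo1, had -0.27 (SE 0.08, edgeR adjusted p = 0.0609).

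Of 33 tested glutathione, thioredoxin and peroxiredoxin genes, 3 rose and 5 fell. Those higher were Sesn3, a sestrin (0.80, edgeR adjusted p = 0.0217), the extracellular superoxide dismutase gene Sod3 (0.50, edgeR adjusted p = 0.0195) and the 5-oxoprolinase gene Oplah (0.40, edgeR adjusted p = 0.0326). Those lower were Chac1, which degrades glutathione (-0.55), the thioredoxin-related Txnl1 (-0.51), the glutathione peroxidase gene Gpx1 (-0.45), the mitochondrial thioredoxin gene Txn2 (-0.41) and its reductase Txnrd2 (-0.34, named to complete the count). Txnl1 had 77.2 ± 0.681 CPM in si-METTL3 and 110 ± 4.72 CPM in si-NC (SD, n = 3 each), and its call alone in this list held in all 6 fits that left out a library. The 7 others held in 1 to 3 of them. Against si-NC replicate 3 alone, Sod3 (0.38, edgeR adjusted p = 0.0772) and Oplah (0.37, edgeR adjusted p = 0.117) did not pass, and the list had 1 higher and 5 lower genes. With all 6 libraries, Oplah passed in 5 and Sod3 in 8 of 10 other ways of processing. Corrected for transcript length, Gpx1 was at -0.25 (edgeR adjusted p = 0.0328) and Txn2 at -0.27 (edgeR adjusted p = 0.0252).

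Of 17 tested NADPH and pentose phosphate genes, 3 rose and 0 fell in edgeR (5 and 0 at an unadjusted p under 0.05, 3 and 0 in DESeq2 and in limma-voom). Idh1, the cytosolic NADP-dependent isocitrate dehydrogenase gene, rose to 39.8 ± 2.79 CPM in si-METTL3, against 21.8 ± 1.27 CPM in si-NC (SD, n = 3 each; log2 fold change 0.87, SE 0.09, edgeR adjusted p = 0.00227). Nnt, the mitochondrial transhydrogenase gene (0.80), and Taldo1, the transaldolase gene (0.69), rose as well, and all 3 calls held in all 6 fits that left out a library. Nnt stands in the table under 2 identifiers, of which the lower was used. Its rise is stated for that entry alone, and the other is not described here. Against si-NC replicate 3 alone the list had 3 higher genes and 1 lower. Of the 17 tested selective autophagy receptors and partners, the family of Sqstm1, 0 passed in edgeR, DESeq2 or limma-voom, and 2 had an unadjusted edgeR p under 0.05. These 2 were Calcoco1 (0.27, SE 0.08, edgeR adjusted p = 0.0634) and Wdfy3 (0.21, SE 0.08, edgeR adjusted p = 0.117), the second of which turned to -0.09 with a transcript length correction. Against si-NC replicate 3 alone 1 gene of this list was lower and 0 were higher.

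**Figure D4:**
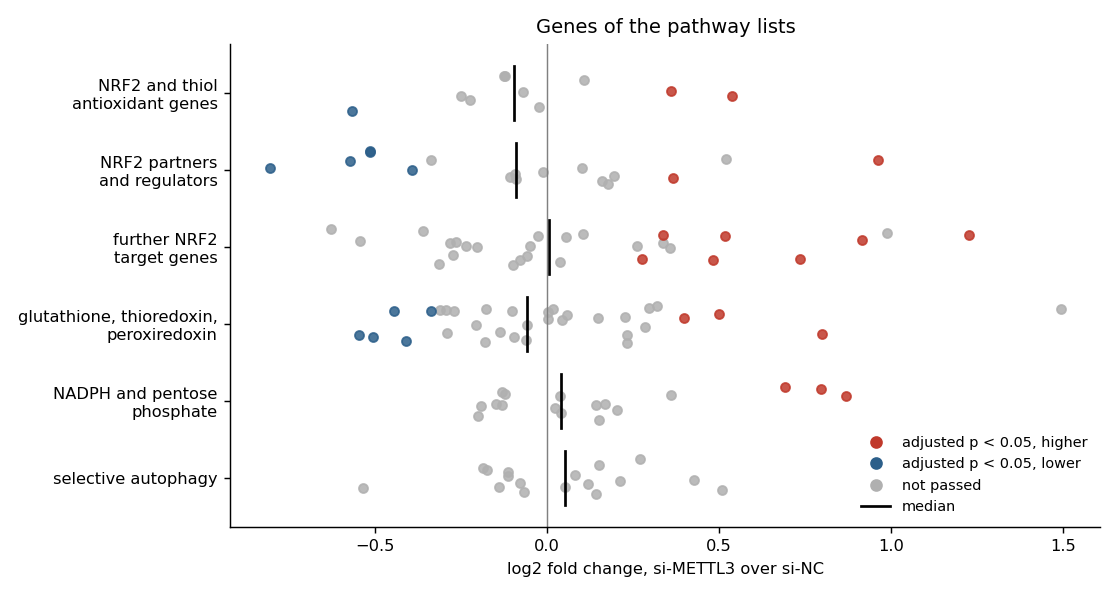
Log2 fold change of si-METTL3 over si-NC (horizontal axis) for each tested gene of the 10 members and of the 5 further lists, with genes that passed coloured and the median of a list as a vertical line. The medians lie between -0.10 and 0.05, with genes that passed on both sides of 0 among the members, the regulators and the glutathione and thioredoxin genes.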

How the data were processed

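RNA was sequenced from 6 libraries, 3 si-METTL3 and 3 si-NC, grouped and numbered by the sample titles. Per the file headers, the authors deposited whole-number counts and FPKM values per library, their group means and log2 fold change, and p-values from an unnamed test. The submitters' processing notes name the build mm9 and the tools RSEM, StringTie, Bowtie2 and fastp, without roles or versions. The authors' deposited table has an adjusted p below 0.05 for the same 3 of the 10 genes, Nfe2l2 (0.000344), Gclm (0.0174) and Sqstm1 (6.5e-05), among 2649 genes in all (15%).

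Here edgeR 4.0.16, run in R 4.3.3, tested the counts of the whole mRNA table (TMM, filterByExpr, quasi-likelihood fit of the group, Benjamini-Hochberg adjustment over all tested genes, threshold 0.05), and the lncRNA table separately in the same way. CPM use the effective library size, except marker sums, which use the library's total count. SE was obtained from the log2 fold change and the F statistic, and 95% intervals use the t distribution of the fit. Alternatives used DESeq2 1.42.0 and limma 3.58.1. The fit was tested on simulated counts. It recovered 12.1% of 66 genes changed 1.5-fold, 63.6% of 66 changed 2-fold and 87.9% of 66 changed 4-fold. Of its 115 calls 6.09% were false. The simulation changed 200 genes, while 2468 genes passed in the data, so these rates need not hold for the data. For a member that did not pass, the 95% interval gives the changes that remain possible. The intervals of Keap1, Nqo1, Gclc, Srxn1 and G6pdx did not reach 1.5-fold in either direction. That of Prdx1 reached a 1.5-fold fall, and that of Txn1 reached 1.5-fold in both directions. All 115 list genes were in the table, and genes were named as all 10 members plus, per list, up to 4 called genes each way by size of change, or the 2 smallest p where none was called. Mafg, Cul3, Txnrd1, Txnrd2, Hmox1, Gsr, Ugdh and Mgst1 lie outside that rule and were added after their values were seen. Members and lists were chosen with earlier results of these data known. GENCODE M21 (GRCm38) gave positions, overlapping genes and transcripts, and no coordinate was converted. The 50-base windows compared the longest basic coding transcript of a gene with all annotated transcripts. Figures were drawn with matplotlib 3.10.9. No 2 libraries held identical counts. Genes with counts as low as those of Txn1 have wide intervals.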

Additional observations from a re-analysis of the deposited data

How the results depend on the processing

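Over 10 other ways of processing (2 other normalizations, 2 filters, DESeq2, limma-voom, limma on log2(FPKM + 1) and on log2(FPKM + 0.1), the replicate block and a transcript length offset), Nfe2l2 and Sqstm1 passed in all 10, with log2 fold changes of 0.52 to 0.55 and -0.58 to -0.52, and Gclm passed in 9. Txn1 fell under the stricter filter and the FPKM filter and was tested in 7. With 1 library left out, the numbers of genes called ranged from 315 to 2390 higher and 350.0 to 2527 lower, those of the 10 members from 0 to 2 higher and 0 to 2 lower in edgeR, and those of the 5 lists from 5 to 20 higher and 3 to 26 lower. The replicate block gave 563 higher and 710.0 lower genes and 1 higher member, with Gclm at 0.36 (edgeR adjusted p = 0.0625). Of the list genes named by the rule above, Sod3, Oplah, Gstm1, Chac1, Txn2 and Amer1 did not pass under it either (edgeR adjusted p 0.0515 to 0.0862). Over the 5 lists 10 genes were higher under the replicate block, against 15 in the main fit. Higher calls beyond those named were thus also lost. Whether the replicate numbers pair the samples cannot be decided from these libraries. Same-numbered deviations from the group means correlated at -0.31 to 0.20, and 1 of 6 libraries correlated best with its own number. With 3 libraries in a group these deviations constrain each other. With si-NC replicate 3 as the only control library, 1 member was higher and 1 lower, and 9 list genes were higher and 15 lower, against 15 higher and 10 lower with all libraries. The cause of these changes was not tested, beyond the smaller number of libraries in fits that leave some out. Gclc, near 0 throughout, and Txn1 changed sign in some fits without passing in any. Txn1 had 11 to 28 counts a library, and its 95% interval was the widest of the 10 genes.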

Other observations

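The pentamer GGACT, a common core of m6A consensus sites, was counted in the longest coding transcript of each gene as a description of sequence, since m6A was not measured here. Nfe2l2 held 6 copies (2.42 per kilobase) and Sqstm1 held 7 (2.62 per kilobase), the highest densities among the 10 genes. They lay at or above 94.8% and 96.3% of 13012 tested genes, whose median was 1.05 per kilobase. The other 8 genes held 1 to 4 copies each, at 0.584 to 1.42 per kilobase, including Gclm with 4 copies (0.716 per kilobase). Of the 2 genes with the highest densities, Nfe2l2 rose and Sqstm1 fell in si-METTL3.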
